A study of Rattus norvegicus with 6 samples.

Results

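The genes described here encode enzymes that attach ubiquitin to proteins or take it off again, and parts of the ligases that choose the proteins to be marked. They were chosen by name from the table of counts, as the genes named Uba followed by a single digit, Ube2, Usp followed by a digit, Cul followed by a digit, or Fbxl, Fbxo or Fbxw followed by a digit. The choice used names only and no measured value. It gave 159 of the 32883 genes in the table: 6 Uba genes, 32 Ube2 genes, 8 cullin genes, 51 Usp genes and 62 F-box genes, of which 17 are Fbxl, 35 Fbxo and 10 Fbxw. A shared name does not mean a shared function. Usp6nl, for example, takes its name from a resemblance to another Usp gene and encodes a GTPase-activating protein for Rab proteins, not a deubiquitinase.

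The RNA came from GH4C1 cells, an established rat pituitary tumour line that makes prolactin and growth hormone. The labels give the line as wild type, and every library came from cells crosslinked with psoralen, which joins base-paired strands of nucleic acid. RNA was pulled down with Oligo Pool A in 3 libraries and with Oligo Pool B in 3 others, in a study of RNAs in direct contact with Neat1, the long noncoding RNA on which the nuclear bodies called paraspeckles are built. The labels do not give the oligonucleotide sequences, do not say whether either pool was a control, and do not say whether libraries of a pool came from separate cultures, so p-values measure the spread between these libraries only. Input RNA was not analysed here, so the abundance of a transcript in the cells and its recovery by a pool cannot be told apart, nor can fewer cells with a transcript and less of it per cell.

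Ubiquitin is a small protein that is joined to other proteins in a relay. An E1 enzyme (Uba) activates it, an E2 enzyme (Ube2) carries it, and an E3 ligase brings the E2 to the substrate. The largest family of E3 ligases is built on cullins: Cul1 holds the adaptor Skp1 and an F-box protein that recognises the substrate, while other cullins hold other receptors. Ubiquitin-like proteins such as NEDD8, SUMO and ISG15 have E1 and E2 enzymes of their own, and NEDD8 switches the cullins on. Ubiquitin-specific proteases (Usp) remove ubiquitin again. In the pituitary the pathway is known above all for USP8, which is mutated in many human corticotroph tumours.

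Total counts per library were between 1826390 and 3685899, so that a count of 0 allows up to 3 counts, or between 0.814 and 1.64 CPM (the count divided by the library's total count, times 1000000). Of the 8 lactosomatotroph markers, Prl, Gh1, Pou1f1, Chgb and Scg2 had at least 10 counts in every library, whereas Ghrhr and Drd2 were at 0 in all. Summed over the 8, these markers were at 6444 to 7119 CPM with pool A and 29533 to 36546 CPM with pool B. Chgb carried this excess, with a mean of 3742 CPM with pool A and 31688 CPM with pool B, whereas Prl and Scg2 were higher with pool A and Gh1 and Pou1f1 did not pass the threshold. The 4 gonadotroph and thyrotroph markers summed to 9.10 to 15.999 CPM with pool A and 39.97 to 46.2 CPM with pool B. Nearly all of this was Lhb, since Fshb and Tshb were at 0 in all libraries and Cga had 3 counts in 1 library. The part of these markers in the results below was not tested. Across all libraries, corticotroph markers summed to 4.34 to 10.04 CPM, fibroblast markers to 9.54 to 24.5 CPM, immune markers to 9.46 to 23.0 CPM and endothelial markers to 0 to 0.814 CPM. The labels record no batch or date.

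Many of these genes differed between the pools, and in both directions. With edgeR's quasi-likelihood test, fitted over all genes, an adjusted p under 0.05 was reached by 64 of the 136 members tested (47.1%), compared with 40.6% of all 11582 genes tested. Of these, 35 were higher with pool A (25.7%, against 18.6% of all genes) and 29 were higher with pool B (21.3%, against 22.0%). Fold changes are given as log2 of pool A over pool B with the standard error (SE), so that positive values mean more with pool A. They ran from -2.42 for the F-box gene Fbxw4 to 3.16 for the E2 gene Ube2j2, and the median size among the 64 genes was 1.17, against 1.20 for all genes that differed. More than 2-fold differences past the threshold were found for 21 members in favour of pool A and 16 in favour of pool B, and more than 4-fold differences for 6 and 3. Over all genes, these shares were 11.1% and 14.2% for more than 2-fold, and 3.43% and 4.39% for more than 4-fold. Separate CPM ranges in the 2 pools were found for 77 of the tested members (56.6%), 36 with all pool A libraries above and 41 with all pool B libraries above, against 49.1% of all genes (18.9% and 30.2%).

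**Figure D1:**
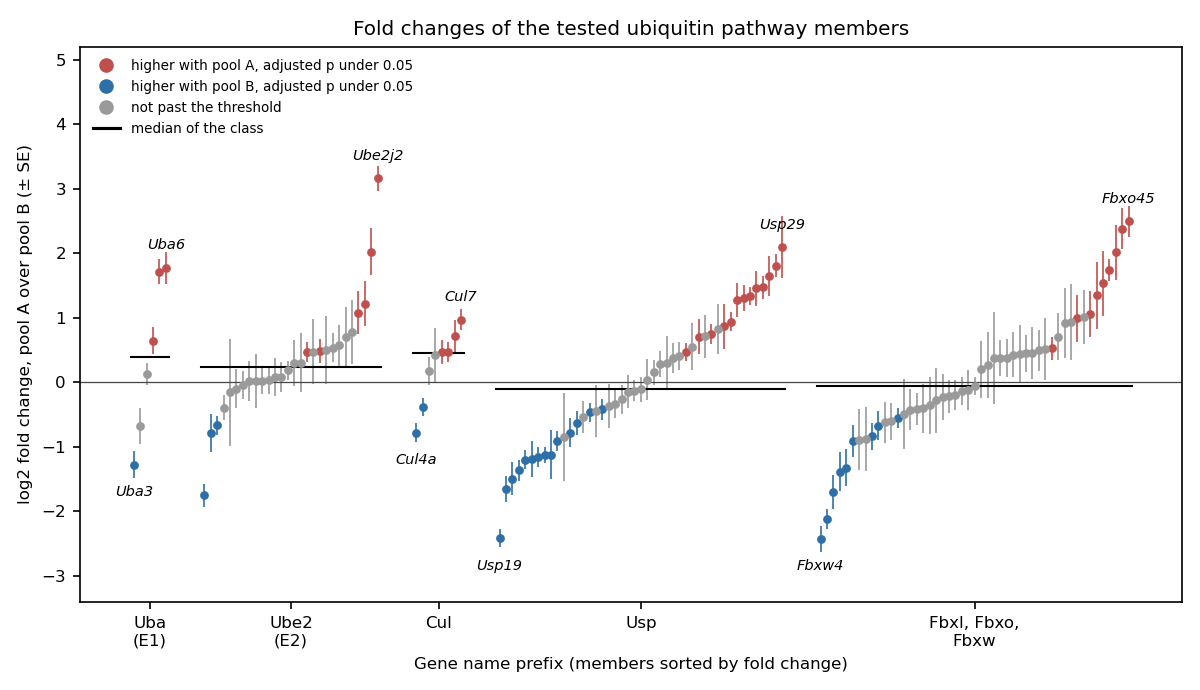
Log2 fold change of pool A over pool B (vertical axis, ± SE) for each of the 136 tested members, grouped by name prefix and sorted within each group, with the median of the class as a black line. Ube2j2 has the highest value (3.16) and Fbxw4 the lowest (-2.42), and each of the 5 classes holds members past the threshold (adjusted p under 0.05) in both directions.

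Classes differed in how many of their tested members passed the threshold. It was passed by 27 of 45 Usp genes (60.0%), 18 of 49 F-box genes (36.7%), 9 of 28 Ube2 genes (32.1%), 6 of 8 cullins and 4 of 6 Uba genes. Their levels differed as well. The median of the mean CPM was 50.9 among tested Usp genes, 103 among cullins, 23.0 among Ube2 genes, 21.9 among F-box genes and 25.9 over all genes tested. At a mean of at least 25 CPM, 24 of 34 Usp genes (70.6%), 11 of 19 F-box genes (57.9%) and 6 of 13 Ube2 genes (46.2%) differed, against 57.9% of all genes at that level. So did 6 of 7 cullins, 4 of 6 Uba genes and, for all classes together, 51 of 79 members (64.6%). Below 25 CPM, 13 of 57 members (22.8%) and 22.5% of all genes differed. The median size of the fold change was 0.97 for the Uba genes, 0.78 for the Usp genes and 0.55 for the F-box genes. It was 0.48 for the cullins and 0.47 for the Ube2 genes, against 0.60 over all genes tested. No test of the differences between classes was made.

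**Figure D2:**
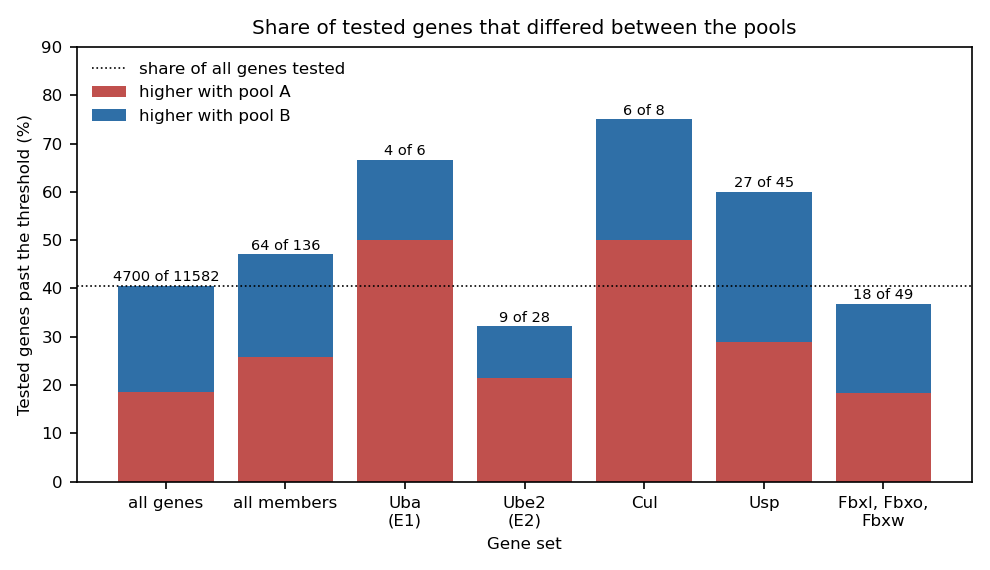
Share of tested genes (vertical axis, %) with an adjusted p under 0.05, split by direction, for all genes, all members and each class, with the number of genes above each bar and the share of all genes as a dotted line. Usp genes (27 of 45) lie above the share of all genes and Ube2 genes (9 of 28) below it.

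The direction split depended on the scaling between libraries. Of the members that differed, those in favour of pool A made up 54.7% under TMM scaling, 41.1% with total counts alone (23 and 33 genes) and 59.7% with upper-quartile factors (37 and 25 genes). Over all genes that differed, the same shares were 45.8%, 37.2% and 52.8%. Total counts alone and upper-quartile factors moved the median log2 fold change over all genes by -0.14 and 0.10. Under the 15 alternatives, single libraries left out included, 41 of the 64 members kept their call wherever they could be fitted, 20 in favour of pool A and 21 in favour of pool B. None of the 64 changed direction under any of these alternatives. The alternatives refit the libraries that gave these calls, so this is not an independent check. The median log2 fold change of the tested members was 0.17, against 0.02 over all genes, and it was 0.09 without pool B replicate 2. The 123 members whose lowest library held 10 counts or more had a median of 0.08, against -0.0054 over all genes of that kind. Of these 123, 31 favoured pool A and 29 pool B (25.2% and 23.6%, against 20.0% and 24.1% of all 9272 genes of that kind). More than 2-fold differences past the threshold were found for 17 and 16 (992 and 1341 of the 9272 genes). More than 4-fold differences numbered 4 and 3 (235 and 316 of the 9272 genes).

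Not every member could be tested. Of the 23 members that did not reach edgeR's expression filter, 7 had no count in any library: Ube2b, Ube2u, Usp26, Usp9y, Fbxl7, Fbxo40 and Fbxw12. The other 16 had between 2 and 44 counts summed over the 6 libraries, among them Usp18 and Ube2l6, which act in the ISG15 pathway, with 14 and 9. How reads of close copies were assigned is not stated, so the values of Ube2b, a near twin of Ube2a, of the Ube2d genes and of the pair Ube2q2 and Ube2q2l are uncertain. Members called with fewer than 10 counts in a library numbered 4, all higher with pool A: Usp29, Fbxl4, Fbxl18 and Fbxo9.

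In total the members took more of the counts with pool B. Their summed level was 7626, 7445 and 7943 CPM with pool A and 10774, 11773 and 11452 CPM with pool B. All pool B libraries lay above all pool A libraries, which in an exact permutation test of 3 against 3 gives the smallest two-sided p possible, 0.1. A single gene made up much of this difference. Usp19 held between 5.76% and 6.43% of the members' counts with pool A and between 23.8% and 24.8% with pool B. Without Usp19 the pool A libraries summed to 7201 ± 226 CPM (SD, n = 3). The same sum was 8559 ± 324 CPM (SD, n = 3) in the pool B libraries. After TMM scaling the sums without Usp19 were 7560 ± 216 and 8152 ± 274 (SD, n = 3), a ratio of 1.08. Counts were not divided by gene length, so they rank libraries and not genes.

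**Figure D3:**
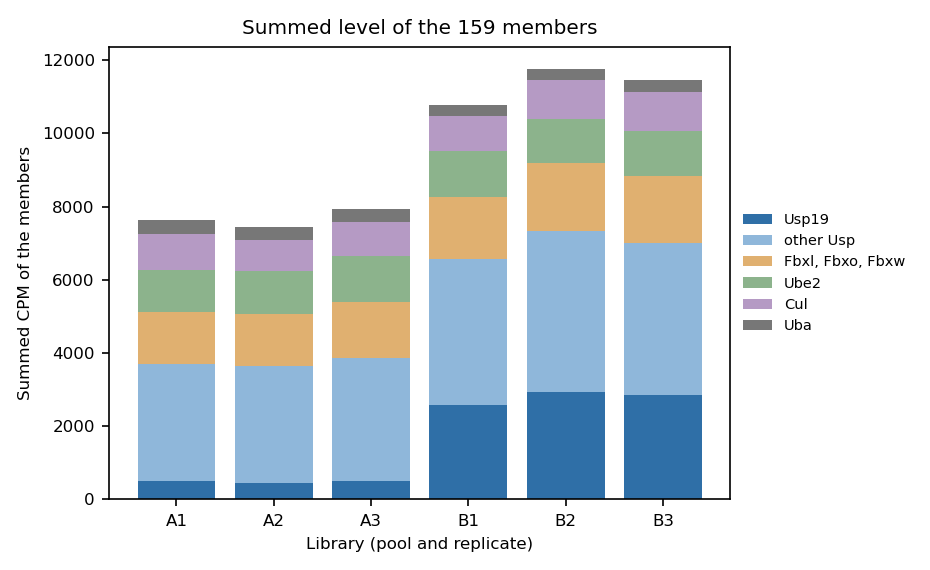
Summed CPM of the 159 members (vertical axis) in each of the 6 libraries (horizontal axis), stacked by class with Usp19 apart from the other Usp genes. The pool B libraries reach 10774 to 11773 CPM and the pool A libraries 7445 to 7943 CPM, and the Usp19 segment differs most.

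The E1 enzymes, which open the relay, did not all go one way. Of the 6, 3 were higher with pool A, 1 was higher with pool B, and 2 did not pass the threshold. Over all genes, 18.6% passed it towards pool A and 22.0% towards pool B. At a mean of at least 25 CPM, where all 6 E1 genes lay, 57.9% of all genes passed it. Uba6, which activates ubiquitin alongside Uba1, had 65.1, 68.8 and 50.2 CPM with pool A and 22.2, 13.1 and 23.5 CPM with pool B. The pools did not overlap, and the log2 fold change was 1.77 ± 0.25 (SE) at an adjusted p of 1.93e-06. Uba1, the main ubiquitin E1, had 92.2, 62.1 and 74.04 CPM with pool A and 37.2, 66.3 and 59.8 CPM with pool B. Its ranges overlapped, since pool B replicate 2 lay above pool A replicate 2, and its log2 fold change was 0.65 ± 0.21 (SE) at an adjusted p of 0.016. Uba3, the catalytic subunit of the NEDD8 E1, went the other way with 27.1, 36.8 and 30.1 CPM with pool A and 92.7, 80.5 and 77.6 CPM with pool B. Every pool B library was above every pool A library, with a log2 fold change of -1.27 ± 0.20 (SE) at an adjusted p of 1.09e-05. Uba2, a subunit of the SUMO E1, had a log2 fold change of 0.13 ± 0.17 (SE) at an adjusted p of 0.582. That of Uba7, the E1 of ISG15, was -0.67 ± 0.28 (SE) at an adjusted p of 0.0586. Calls changed for Uba1 without pool A replicate 1 or pool B replicate 1 or with total counts alone (adjusted p 0.0666 to 0.126), whereas Uba7 passed the threshold when pool A replicate 3 (adjusted p 0.026) or pool B replicate 3 (adjusted p 0.0361) was omitted. Scaling by total counts gave Uba7 an adjusted p of 0.0283. In each of these fits 2 E1 genes, not 1, were higher with pool B.

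Among the E2 enzymes most did not pass the threshold, and a few stood far out. Of the 28 tested, 6 were higher with pool A, while 3 favoured pool B (21.4% and 10.7%, against 18.6% and 22.0% of all genes). Ube2j2, an E2 of the endoplasmic reticulum membrane that acts in the disposal of misfolded proteins, had 139, 138 and 143 CPM with pool A and 15.3, 17.5 and 18.9 CPM with pool B. The pools were far apart, with a log2 fold change of 3.16 ± 0.19 (SE) at an adjusted p of 2.39e-13. Ube2d1, an E2 that serves many E3 ligases, had 36.4, 27.7 and 34.5 CPM with pool A and 3.41, 10.95 and 12.9 CPM with pool B. The lowest value was in pool B replicate 1, and the log2 fold change was 2.03 ± 0.36 (SE) at an adjusted p of 4.87e-05. Ube2ql1 and Ube2f, an E2 for NEDD8, were also higher with pool A, by 1.22 ± 0.35 and 1.08 ± 0.33 (SE). So were Ube2q1 and the large E2 Ube2o, by 0.48 ± 0.18 and 0.47 ± 0.16 (SE).

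In favour of pool B, Ube2s, which extends ubiquitin chains for the anaphase-promoting complex (APC/C), had 119, 111 and 161 CPM with pool A and 204, 232 and 245 CPM with pool B. Its ranges were apart, with a log2 fold change of -0.66 ± 0.15 (SE) at an adjusted p of 0.000648. Ube2g2, another E2 of endoplasmic reticulum disposal, had one of -0.79 ± 0.29 (SE) at an adjusted p of 0.0313. Several well-known E2 genes had small fold changes and did not pass the threshold. These were Ube2c, which starts the chains that Ube2s extends, with 0.03 ± 0.21 (SE), Ube2m, the second E2 of NEDD8, with 0.03 ± 0.21 (SE) and Ube2k, among the E2 genes with the most counts, with 0.19 ± 0.15 (SE). The values were also close to 0 for Ube2d3 (-0.04), Ube2e1 (0.02), Ube2e3 (0.03), Ube2l3 (0.09) and Ube2q2 (0.08). Calls were lost for Ube2f without pool B replicate 3 (adjusted p 0.0572), Ube2g2 without pool A replicates 2 or 3 or pool B replicate 3 or with upper-quartile factors (adjusted p 0.0606 to 0.265), Ube2o without pool A replicate 1 or pool B replicate 3 or with total counts alone (adjusted p 0.0998 to 0.13) and Ube2q1 without pool A replicates 1, 2 or 3 or pool B replicates 1 or 3 or with total counts alone or no filter (adjusted p 0.0549 to 0.165). The number of E2 genes higher with pool A was 3 without pool B replicate 3.

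The cullins are the scaffolds of the largest family of ubiquitin ligases, and their differences were small. All 8 were tested. Cul7, Cul5, Cul3 and Cul1 were higher with pool A, Cul4a and Cul9 were higher with pool B, and none of the 8 differed more than 2-fold. The shares of all genes past the threshold were 18.6% towards pool A and 22.0% towards pool B. At a mean of at least 25 CPM, where 7 of the 8 cullins lay, 57.9% of all genes passed it. Cul7 had 206, 151 and 173 CPM with pool A and 102, 117 and 81.3 CPM with pool B. These ranges did not overlap, and the log2 fold change was 0.97 ± 0.16 (SE) at an adjusted p of 2.13e-05. Cul4a, which holds Ddb1 and its receptors, had 135, 117 and 149 CPM with pool A and 237, 233 and 289 CPM with pool B. All pool B libraries were above the pool A libraries, with a log2 fold change of -0.78 ± 0.14 (SE) at an adjusted p of 7.02e-05. Its close relative Cul4b had 0.18 ± 0.22 (SE). For Cul1, the scaffold of the ligases that use F-box proteins, the value was 0.47 ± 0.19 (SE) at an adjusted p of 0.0458. Cul3, which holds receptors with a BTB domain, had 0.48 ± 0.15 (SE) at an adjusted p of 0.0144, and Cul5, which works with SOCS box proteins, had 0.72 ± 0.25 (SE) at an adjusted p of 0.0216. Cul9 had -0.39 ± 0.14 (SE) at an adjusted p of 0.0292, and Cul2, the scaffold for the von Hippel-Lindau protein, 0.43 ± 0.42 (SE) at an adjusted p of 0.456. The calls of Cul7 and Cul4a held under all 15 alternatives, but the others did not. Calls were lost for Cul1 without pool A replicates 1 or 2 or pool B replicates 1, 2 or 3 or with total counts alone, no filter or limma-voom (adjusted p 0.05 to 0.182), Cul3 without pool A replicate 2 or pool B replicate 2 or with total counts alone (adjusted p 0.0631 to 0.0988), Cul5 without pool A replicate 3 or pool B replicates 1 or 3 or with total counts alone (adjusted p 0.0739 to 0.097) and Cul9 without pool A replicates 2 or 3 or pool B replicates 2 or 3 or with upper-quartile factors (adjusted p 0.0705 to 0.214). With total counts alone, 1 cullin remained past the threshold in favour of pool A, and with upper-quartile factors 1 in favour of pool B. The number higher with pool A was 2 without pool A replicate 2 or without any 1 of the pool B replicates. The number higher with pool B was 1 without pool A replicate 2 or 3, or without pool B replicate 2 or 3.

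F-box proteins bind Skp1 through the F-box and choose the substrates of Cul1 ligases. Of the 49 F-box genes tested, 9 favoured each pool, which is close to the background in each direction (18.4%, against 18.6% and 22.0% of all genes). By repeat type, 5 of 14 Fbxl genes (leucine-rich repeats), 4 of 8 Fbxw genes (WD40 repeats) and 9 of 27 Fbxo genes (other domains) passed the threshold. Fbxo45, known from synapse formation, had 69.2, 71.98 and 58.04 CPM with pool A and 13.3, 14.2 and 11.7 CPM with pool B. The pools were well separated, with a log2 fold change of 2.50 ± 0.25 (SE) at an adjusted p of 2.72e-09. Fbxw7, which marks cyclin E, Myc and Notch for destruction, had 156, 174 and 174 CPM with pool A and 62.4, 61.9 and 42.8 CPM with pool B. There too the ranges were apart, with a log2 fold change of 1.74 ± 0.17 (SE) at an adjusted p of 2.52e-09. Fbxw9 and Fbxl18 had 2.38 ± 0.32 and 2.01 ± 0.42 (SE), and Fbxl4, a mitochondrial F-box protein, had 1.35 ± 0.52 (SE). Fbxo9, Fbxo22, Fbxl12 and Fbxw11 were higher with pool A by 1.54 ± 0.50, 1.06 ± 0.36, 0.99 ± 0.36 and 0.53 ± 0.18 (SE). Of these, Fbxo9 and Fbxo22 are members that the rule for describing single genes did not pick. They were chosen after their values were seen.

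The F-box genes higher with pool B included Fbxw4, with 27.9, 21.8 and 20.1 CPM with pool A and 133, 171 and 115 CPM with pool B. Its ranges were far apart, and the log2 fold change was -2.42 ± 0.20 (SE) at an adjusted p of 1.4e-10. Fbxl19, which has a zinc finger that binds unmethylated CpG sites, had 51.5, 39.5 and 52.7 CPM with pool A and 214, 251 and 229 CPM with pool B. All pool B libraries were more than 4 times any pool A library, with a log2 fold change of -2.12 ± 0.16 (SE) at an adjusted p of 1.36e-11. Fbxo11, a ligase subunit for Bcl6, had -1.70 ± 0.26 (SE). Fbxo43, an inhibitor of the APC/C in germ cells, had -1.38 ± 0.31 (SE) and Fbxl5, a sensor of iron, -1.32 ± 0.29 (SE). Fbxo21, Fbxo3, Fbxo32 and Fbxo38 were higher with pool B with smaller fold changes, from -0.91 for Fbxo21 to -0.55 for Fbxo38. The rule for describing single genes did not pick Fbxo21 and Fbxo3 either. Fbxo2, which recognises glycoproteins, was among the F-box genes with the most counts and had 169, 144 and 174 CPM with pool A and 186, 166 and 205 CPM with pool B. Its ranges overlapped and its log2 fold change was -0.05 ± 0.14 (SE) at an adjusted p of 0.805. Calls were lost for Fbxl12 without pool A replicates 1 or 2 or pool B replicate 1 or with total counts alone (adjusted p 0.0647 to 0.124), Fbxl4 without pool A replicates 2 or 3 or pool B replicates 1, 2 or 3 or with total counts alone, no filter or limma-voom (adjusted p 0.0502 to 0.13), Fbxo22 without pool A replicates 2 or 3 or pool B replicates 2 or 3 (adjusted p 0.0501 to 0.0869), Fbxo9 without pool A replicate 3 or pool B replicates 1 or 3 (adjusted p 0.052 to 0.115) and Fbxw11 without pool B replicates 1 or 2 or with total counts alone (adjusted p 0.0547 to 0.0949) among those higher with pool A. Among those higher with pool B, they were lost for Fbxo32 without pool A replicate 3 or pool B replicates 1 or 3 or with upper-quartile factors (adjusted p 0.0505 to 0.141) and Fbxo38 without pool B replicate 3 (adjusted p 0.0664). The F-box genes higher with pool A numbered 5 without pool B replicate 1.

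The Usp genes gave the most differences, 13 of 45 in favour of pool A and 14 in favour of pool B (28.9% and 31.1%, against 18.6% and 22.0% of all genes). Usp19, a deubiquitinase anchored in the endoplasmic reticulum, had 490.2, 429 and 490.0 CPM with pool A and 2562, 2920.0 and 2841 CPM with pool B. The lowest pool B library was more than 5 times the highest pool A library, and the log2 fold change was -2.42 ± 0.14 (SE) at an adjusted p of 4.72e-14. Usp8, which acts on receptors at endosomes, had 261, 399 and 388 CPM with pool A and 748, 980.1 and 859.9 CPM with pool B. Pool A replicate 1 was the lowest, all pool B libraries were above the pool A libraries, and the log2 fold change was -1.16 ± 0.15 (SE) at an adjusted p of 5.06e-07. Usp36, a nucleolar deubiquitinase, had 279, 255 and 333 CPM with pool A and 655, 706 and 726 CPM with pool B. It showed the same order of the pools, with a log2 fold change of -1.13 ± 0.13 (SE) at an adjusted p of 4.46e-08. Usp21, Usp39 and Usp4 were also higher with pool B, with log2 fold changes of -1.66 ± 0.20, -1.49 ± 0.26 and -1.20 ± 0.15 (SE). Usp6nl, the GTPase-activating protein, had -1.36 ± 0.17 (SE). Without it, 13 Usp genes were higher with each pool.

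In favour of pool A, Usp5, which takes apart free ubiquitin chains, had 169.6, 141 and 136 CPM with pool A and 41.2, 45.4 and 54.5 CPM with pool B. Its ranges did not overlap, with a log2 fold change of 1.81 ± 0.18 (SE) at an adjusted p of 2.73e-09. Usp13, the closest relative of Usp5, had 179.9, 132 and 139 CPM with pool A and 55.2, 54.8 and 69.6 CPM with pool B. The order was the same, with a log2 fold change of 1.47 ± 0.18 (SE) at an adjusted p of 8.95e-08. Usp29 had the largest value, 2.10 ± 0.48 (SE) at an adjusted p of 0.000839. Its counts with pool B were only 18, 5 and 10. Usp12 and Usp38 had 1.65 ± 0.31 and 1.46 ± 0.27 (SE). Usp47 is a member that the rule for describing single genes did not pick, and it was singled out after its values were seen. It had 299, 265 and 291 CPM with pool A and 133, 124 and 117 CPM with pool B. Its pools were apart, with a log2 fold change of 1.34 ± 0.14 (SE) at an adjusted p of 6.71e-09. Usp7, its relative and a deubiquitinase of Mdm2 and p53, had 0.47 ± 0.14 (SE) at an adjusted p of 0.00788. Usp9x, Usp10, Usp24 and Usp40, members that this rule did not pick either, were higher with pool A by 0.94, 1.31, 0.75 and 1.28. Calls were lost for Usp14 without pool A replicates 1, 2 or 3 or pool B replicates 2 or 3 or with total counts alone, no filter or limma-voom (adjusted p 0.0555 to 0.142) and Usp22 without pool A replicates 1, 2 or 3 or pool B replicates 1 or 3 or with total counts alone (adjusted p 0.0605 to 0.206), both higher with pool A. Among those higher with pool B, they were lost for Usp16 without pool A replicate 1 or pool B replicate 3 (adjusted p 0.0668 to 0.0923), Usp3 without pool A replicates 1 or 2 or pool B replicate 3 (adjusted p 0.0526 to 0.315), Usp35 without pool B replicate 1 (adjusted p 0.067) and Usp37 without pool A replicates 1, 2 or 3 or pool B replicates 2 or 3 or with DESeq2 size factors, upper-quartile factors, no filter or the DESeq2 test (adjusted p 0.0517 to 0.15). Usp7 lost its call with total counts alone (adjusted p 0.0794).

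**Figure D4:**
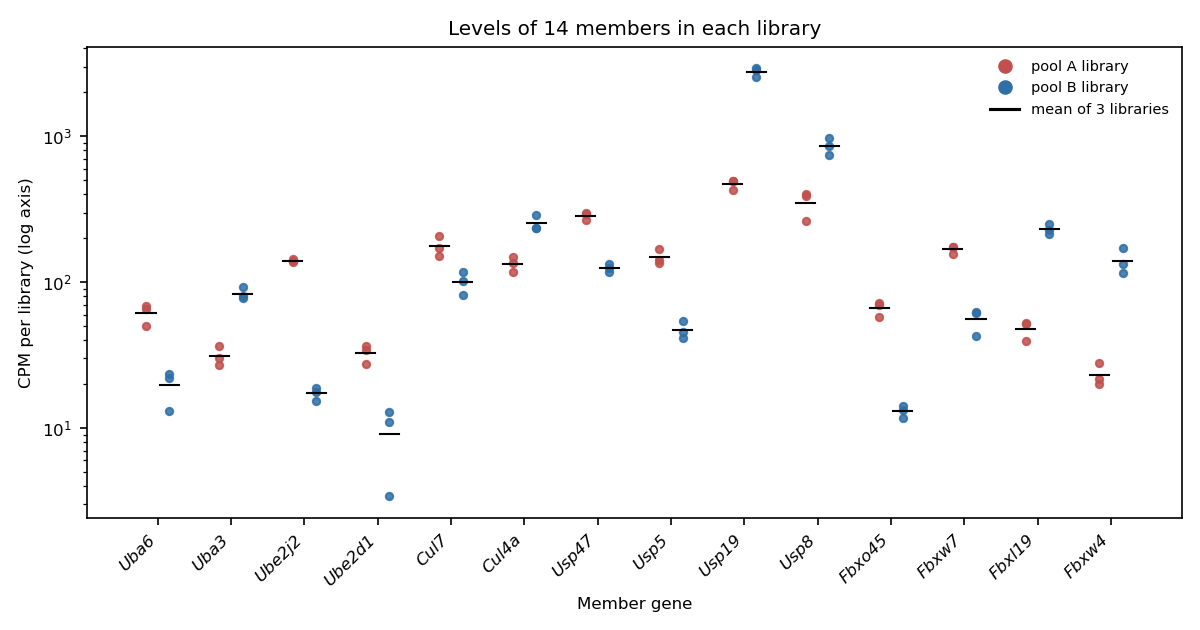
CPM in each library (vertical log axis) for 14 members (horizontal axis), with pool A libraries in red, pool B libraries in blue and the mean of 3 libraries as a black line. The ranges of the pools do not overlap for any of the 14 genes, with Usp19 between 429 and 490.2 CPM with pool A and between 2562 and 2920 CPM with pool B.

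Within several of the steps at which these genes act, members went in different directions. These groups are small, and over all genes tested the shares past the threshold were 18.6% towards pool A and 22.0% towards pool B. In the NEDD8 pathway Uba3 was higher with pool B (-1.27), Ube2f was higher with pool A (1.08), and Ube2m did not pass the threshold (0.03). Of 6 genes of endoplasmic reticulum disposal, Ube2j2 was higher with pool A, Usp19 and Ube2g2 were higher with pool B, and Ube2j1 (0.50), Ube2g1 (0.31) and Usp25 (-0.45) did not pass the threshold. Of the deubiquitinases of histones, 6 of 8 were tested, and 4 were higher with pool B, where the share of all genes was 22.0%: Usp21 (-1.66), Usp49 (-1.19), Usp3 (-1.12) and Usp16 (-0.63). Usp22, the deubiquitinase of the SAGA complex, was higher with pool A (0.71), and its relative Usp27x had -0.84 ± 0.69 (SE). Usp39, a component of the spliceosome, was higher with pool B (-1.49), and Usp14, which sits on the proteasome, was higher with pool A (0.87). Among members that act on damaged DNA, Usp7 was the only 1 of 5 tested to pass the threshold, and Ube2a (0.48), Ube2t (0.57), Usp1 (0.38) and Usp48 (-0.26) did not. Ube2n and Ube2v2, which together build chains linked through lysine 63, had 0.78 ± 0.50 and 0.30 ± 0.35 (SE).

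Turnover of clock proteins is a further role in this list. Fbxl21, which marks cryptochromes, had 0.27 ± 0.51 (SE), and Usp2 had 0.71 ± 0.34 (SE) at an adjusted p of 0.0961. Neither passed the threshold, whereas Fbxw7 did. The F-box proteins that bind glycoproteins, Fbxo2, Fbxo6 (0.45) and Fbxo44 (-0.41), did not pass it either. Among F-box genes of the cell cycle, Fbxw7 and Fbxl12 were higher with pool A, while Fbxo31 had 0.71 ± 0.37 and Fbxo5 -0.28 ± 0.50 (SE). Fbxo31 passed the threshold with limma-voom (adjusted p 0.0234) and without pool B replicate 2 (adjusted p 0.0154). Usp30, which acts at mitochondria, had -0.34 ± 0.22 (SE).

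Related members could be compared by their ratio within each library, which does not depend on the scaling. Of 35 listed pairs, 24 had at least 10 counts in every library for both genes, and in 12 of these 24 the ratios did not overlap between the pools. For consecutive genes of the table with such counts the share was 53.6%, so the related pairs were not set apart by this measure. Usp38 and Usp35 were the single pair called in opposite directions, with 1.46 ± 0.27 and -0.78 ± 0.23 (SE). The log2 ratio of Usp38 to Usp35 was 0.17 to 1.23 with pool A and -2.30 to -0.56 with pool B. The ratio of Ube2j1 to Ube2j2 was -4.75 to -3.30 with pool A and -2.32 to -0.75 with pool B, so that the balance of these related genes was far apart. That of Ube2d1 to Ube2d3 was -0.83 to -0.07 and -4.18 to -1.98. The ratio of Cul4a to Cul4b was 1.5 to 1.99 with pool A and 2.42 to 2.81 with pool B, and that of Usp36 to Usp42 (-0.13) was 1.77 to 2.03 and 2.77 to 2.97. Fbxo11 differed from Fbxo10 (-0.40), Usp12 from Usp46 (0.30) and Fbxo32 from Fbxo25 (1.01) in the same way, with ratios that did not overlap.

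In the other 12 pairs the ratios overlapped between the pools. Usp4 and Usp15, which share a domain architecture with Usp11, were both higher with pool B, with -1.20 ± 0.15 and -0.91 ± 0.16 (SE), and Usp11 had -0.54 ± 0.25 (SE), past the threshold without pool A replicate 1 (adjusted p 0.0336) and with total counts alone (adjusted p 0.0306). Unlike the ratios of Usp4 and of Usp11 to Usp15, the log2 ratio of Usp4 to Usp11 did not overlap, at 1.21 to 2.17 with pool A and 2.25 to 2.47 with pool B. That of Usp4 to Usp15 was 0.03 to 0.51 with pool A and 0.40 to 0.70 with pool B. Usp16 and Usp45 (-0.37), Usp20 (0.16) and Usp33 (0.29), Usp31 (-0.11) and Usp43 (0.04), and Fbxl2 (0.38) and Fbxl20 (0.43) had overlapping ratios as well. So had Usp25 and Usp28 (0.82), of which Usp28 passed the threshold without pool A replicate 2 (adjusted p 0.0438). Fbxo34 had 7 counts in pool B replicate 1, so that its ratio to Fbxo46 was not compared. Fbxo34 (0.92), Fbxo46 (0.44), Usp32 (-0.14) and Ube2d2 (0.71) did not pass the threshold. Fbxo34 passed it without pool B replicate 2 (adjusted p 0.0142) and with limma-voom (adjusted p 0.0391). Fbxo25 passed it without pool B replicate 2, with upper-quartile factors, with a minimum of 10 counts in every library and with limma-voom (adjusted p 0.0262 to 0.0395).

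**Figure D5:**
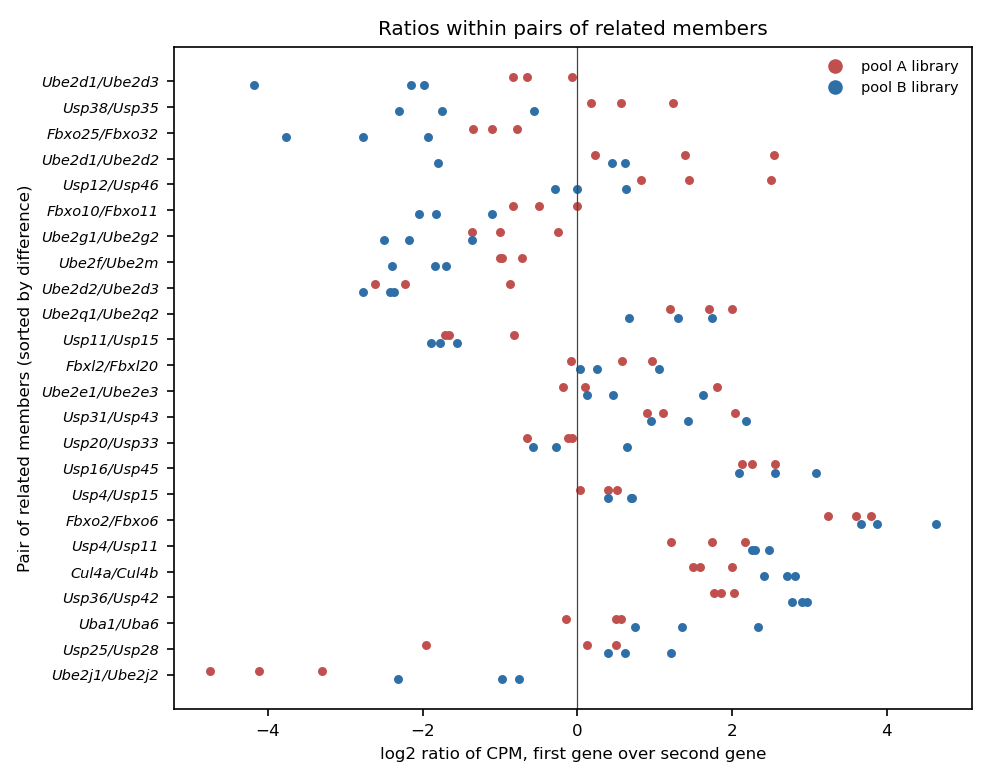
Log2 ratio of CPM of the first gene over the second (horizontal axis) in each library, for 24 pairs of related members (vertical axis, sorted by the difference between pools), with pool A libraries in red and pool B libraries in blue. The ratios do not overlap in 12 pairs, among them Ube2j1 to Ube2j2, at -4.75 to -3.30 with pool A and -2.32 to -0.75 with pool B.

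Genes of the pathway with other names were read from the same fit, in which 40.6% of all genes tested passed the threshold, 18.6% in favour of pool A and 22.0% in favour of pool B. Of 11 tested genes for ubiquitin and ubiquitin-like proteins, 2 favoured pool A and none pool B with edgeR, DESeq2 or limma-voom. At an unadjusted p under 0.05 in edgeR, 1 favoured pool B, and it passed the adjusted threshold with total counts alone, and in the fits that omitted pool A replicate 2 or pool B replicate 1. Those in favour of pool A were Ubb, a polyubiquitin gene, with 0.82 ± 0.14 (SE) at an adjusted p of 3.56e-05, and 1 of the 2 entries named Rps27a, which encodes ubiquitin fused to a ribosomal protein, with 0.80 ± 0.24 (SE) at an adjusted p of 0.00895. Of 25 shared subunits and regulators of cullin ligases, 4 favoured pool A and 5 pool B (36.0% in all, against 40.6% of all genes). Cops5, the subunit of the COP9 signalosome that removes NEDD8 from cullins, had 35.5, 35.6 and 32.3 CPM with pool A and 184, 197 and 212 CPM with pool B. The pool B libraries were all far above the pool A libraries, with a log2 fold change of -2.37 ± 0.17 (SE) at an adjusted p of 4.41e-12. Rbx1, the RING subunit that recruits the E2, was also higher with pool B (-1.23 ± 0.19, SE), and Dcun1d5, which promotes attachment of NEDD8, was higher with pool A (1.47 ± 0.35, SE).

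Of 13 tested genes with an E2 fold or an F-box under other names, 1 favoured pool A and 4 pool B (38.5% in all, against 40.6% of all genes). Those higher with pool B were Ccnf (-1.71 ± 0.17, SE), the F-box protein cyclin F, Tsg101 (-0.97 ± 0.20), Skp2 (-0.96 ± 0.28) and the E2 gene Cdc34 (-0.85 ± 0.18). Btrc, the closest relative of Fbxw11, was higher with pool A by 0.52 ± 0.18 (SE). The rule for describing single genes did not pick Cdc34 and Btrc, which were chosen after their values were seen. Btrc lost its call with total counts alone, and without pool A replicate 2 or pool B replicates 1 or 2. The adjusted p was then 0.0684 to 0.106. Of 32 tested deubiquitinases and isopeptidases outside the Usp names, 9 favoured pool A and 2 pool B (28.1% and 6.25%, against 18.6% and 22.0% of all genes). The largest differences were those of Josd2 (-2.75 ± 0.21, SE) in favour of pool B, and of Senp3, a SUMO protease of the nucleolus (2.53 ± 0.24), and Zranb1 (1.83 ± 0.22) in favour of pool A. Of 23 tested HECT ligases, 6 were higher with each pool (52.2% in all, against 40.6% of all genes), with Arel1 (2.19 ± 0.19, SE) and Huwe1 (2.15 ± 0.13) towards pool A and Herc3 (-2.09 ± 0.16) towards pool B. Of 29 tested receptors of other cullin ligases, 3 favoured pool A and 9 pool B (10.3% and 31.0%, against 18.6% and 22.0% of all genes). Among them Dcaf11 (1.51 ± 0.15, SE) and Asb3 (1.73 ± 0.66) were higher with pool A and Spopl (-1.58 ± 0.36) with pool B. Asb3 had 21, 1 and 5 counts with pool B, and the call was lost for Asb3 without pool A replicates 2 or 3 or pool B replicates 2 or 3 or with total counts alone or limma-voom (adjusted p 0.0554 to 0.261).

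Genes next to these members in the table went both ways. The rows before and after the 35 members higher with pool A held 34 tested genes, of which 10 were likewise higher with pool A, 7 went towards pool B and 17 did not pass the threshold (29.4% and 20.6% for the directions, against 18.6% and 22.0% of all genes). Around the 29 members higher with pool B, 8 of 34 tested genes went the same way and 11 the opposite way (23.5% and 32.4%, against 22.0% and 18.6% of all genes). Around Usp19, Qars, the glutamine tRNA ligase in the row after it, had a log2 fold change of 3.36 ± 0.14 (SE) in the opposite direction, while Lamb2 in the row before it had -0.92 ± 0.25 (SE). Usp36 likewise had Cyth1 with 2.44 ± 0.20 (SE) on one side and Timp2 with -1.29 ± 0.19 (SE) on the other. Whether any of these genes overlap, and whether counting used the strand, is not stated.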

How the data were processed

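RNA pulled down from psoralen-crosslinked GH4C1 cells was sequenced from paired, strand-specific libraries, per the labels' protocols, 3 with each oligonucleotide pool. STAR and featureCounts are named in the submitters' processing notes; versions, genome build, annotation and counting options are not given in the sources used here. The deposited table holds raw counts per gene, and the authors' deposited mean count of each pool, equal to the mean of its 3 libraries, was not used. Total counts were 1826390 to 3685899 per library, and limits from a count of 0 cover counting error only.

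CPM is the count divided by the library's total count, times 1000000. Genes passing filterByExpr were tested with edgeR 4.0.16 (R 4.3.3): TMM scaling, the quasi-likelihood test of pool A against pool B over all 6 libraries, and Benjamini-Hochberg adjustment over 11582 genes. The SE is the size of the log2 fold change divided by the square root of F. In data simulated with 11271 tested genes, 190 of these were changed, in both directions. There 90.4% of 4-fold and 53.1% of 2-fold changes were recovered, and 6.21% of the calls were false. In the real data 40.6% of genes passed the threshold, so these rates need not hold for them. Alternatives used DESeq2 1.42.0, limma 3.58.1, other scalings and filters, a replicate block and each library left out.

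The members, the lists of related genes and the alternatives were chosen with earlier results of these data known. Named were all E1 and cullin genes; in the other classes the 5 largest fold changes each way among genes past the threshold with a mean of at least 10 counts and no overlap between pools, the 3 members with the highest mean CPM, and the members of role groups and pairs; and up to 3 genes per list of related genes. Some genes that this rule names are not reported here. Replicates of one pool differed beyond counting error (chi-square per degree of freedom 5.64 to 8.39).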

Additional observations from a re-analysis of the deposited data

How the results depend on the processing

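None of the 64 members past the threshold changed direction under the 15 alternatives, which refit the same libraries, and 41 of them kept their call. With total counts alone, 23 members were higher with pool A, 1 cullin was higher with pool A and 2 E1 genes with pool B, and the median log2 fold change was 0.028 over members, 0.10 for E2 genes, 0.31 for cullins, -0.24 for Usp genes and -0.19 for F-box genes. With upper-quartile factors these medians were 0.27 for members, 0.35 for E2 genes, 0.55 for cullins and -0.0026 for Usp genes, and 1 cullin was higher with pool B. The E2 median was 0.14 without a filter, the cullin median 0.32 with limma-voom, and the F-box median -0.19 with at least 10 counts in every library. Leaving out 1 library at a time gave 1 to 2 E1 genes higher with pool B, 3 to 6 E2 genes higher with pool A, 2 to 3 cullins higher with pool A, 1 to 2 cullins higher with pool B and 5 to 10 F-box genes higher with pool A. The medians then ran from 0.090 to 0.22 for members, 0.12 to 0.29 for E2 genes, 0.28 to 0.52 for cullins, -0.15 to 0.012 for Usp genes and -0.12 to 0.088 for F-box genes. Genes short of the threshold changed sign with total counts alone: Ube2m (-0.12), Uba2 (-0.0075), Ube2e3 (-0.12), Ube2c (-0.10), Ube2q2 (-0.065), Usp43 (-0.081), Ube2e1 (-0.11) and Ube2l3 (-0.060). They did so with upper-quartile factors for Ube2d3 (0.063) and Fbxo2 (0.049), and with limma-voom for Ube2e3 (-0.035) and Ube2e1 (-0.046). Leaving out 1 library at a time, genes short of the threshold changed sign within these ranges: Fbxo5 (-0.51 to 0.084), Ube2m (-0.052 to 0.12), Usp31 (-0.19 to 0.029), Ube2d3 (-0.19 to 0.097), Usp20 (-0.031 to 0.33), Ube2e3 (-0.30 to 0.34), Ube2c (-0.14 to 0.26), Fbxo2 (-0.14 to 0.030), Ube2q2l (-0.97 to 0.40), Ube2q2 (-0.11 to 0.31), Usp46 (-0.15 to 0.58), Usp43 (-0.21 to 0.32), Usp32 (-0.39 to 0.011), Ube2e1 (-0.27 to 0.23), Fbxl21 (-0.12 to 0.79), Usp25 (-0.69 to 0.012) and Ube2l3 (-0.066 to 0.25). The cause of these shifts was not tested.

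Replicate numbers did not pair the libraries: deviations of same-numbered libraries correlated at 0.0410, -0.0202 and 0.0194. With the replicate block, 32 members favoured pool A and 29 pool B, and Ube2e1 was at -0.025. With the block, the edgeR adjusted p was 0.0634 for Cul1, 0.0630 for Fbxl4, 0.0694 for Asb3 and 0.0588 for Usp14, and no other gene named here changed its call. Because of low counts, 23 of 159 members were not tested, and 13 of 57 tested members under a mean of 25 CPM passed the threshold, with a median fold size of 0.50 against 0.66 at or above that level.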
